A study of Mus musculus with 22 samples.

Results

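The cerebella of circTulp4-deficient (CD) and wild-type mice were compared by 3′ RNA-seq. The comparison rests on the 7 libraries labelled as cerebellum, 4 wild-type (mice m162, m164, m240 and m244) and 3 CD (mice m118, m190 and m242), of the 22 libraries of the series. The other libraries are of hippocampus (3 wild-type and 4 CD) and cortex (4 and 4), and all regions come from 8 mice. CD mice carry a CRISPR-Cas9 mutation of the splice acceptor used to form circTulp4, a circular RNA of the Tulp4 gene, together with a change in the neighbouring PAM, on a C57BL/6 background, and the line goes back to 1 mosaic founder male. The allele lowers circTulp4 without removing it, is present in every cell of these animals, and is the only labelled difference, with no treatment in either genotype. Age and sex are not given in the labels or in the methods for the sequenced mice. Each cerebellum is 1 mouse and 1 library, and the legend of the study gives 1 mouse fewer for each genotype than the files hold.

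The cerebellar cortex is a layered circuit in which granule cells, the most numerous neurons of the brain, send parallel fibres to the dendrites of Purkinje cells, and Purkinje cells are its only output. Glutamate drives the parallel and climbing fibre synapses, whereas molecular layer interneurons and Golgi cells are inhibitory and release GABA, or GABA with glycine. Bergmann glia, a specialised astrocyte, surround the Purkinje cell dendrites. In whole tissue, fewer cells of a type and less RNA of a gene in each cell cannot be told apart.

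CircTulp4 itself has no count of its own in these libraries. CelSeq2 primes reverse transcription at poly(A) tails, which a circle lacks, and priming at runs of A inside the circle was not tested. The reference positions of the circle are given to show where the mutated acceptor lies. It runs on the plus strand of mouse chromosome 17 from 6137211 to 6139156 (GRCm38), over 1946 bases, from the first base of exon 3 of Tulp4-210 to the last base of exon 1 of Tulp4-201. The acceptor that was mutated lies just upstream of the first base. The 30 bases across the backsplice junction, with the 15 bases that follow the acceptor in capitals, come from the GENCODE transcripts of that build.
circTulp4 backsplice junction: ggccacaacagtgagAGTTGTAAGAGTCCA

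Linear Tulp4, a member of the tubby family of membrane-binding proteins, was a gene of low counts (chromosome 17, 6106253 to 6240637 in GRCm38). On its transcript with the most counts, XM_006523251.3, wild-type cerebella had 13.04, 26.5, 14.8 and 8.96 counts per 1000000 (cpm) in mice m162, m164, m240 and m244. CD cerebella had 10.5, 13.03 and 10.6 cpm in mice m118, m190 and m242. The wild-type range held all CD values, and the log2 fold change (CD against wild type in each case) was -0.48 with a standard error (SE) of 0.30 (FDR = 0.981, edgeR quasi-likelihood F-test). Without wild-type mouse m164 it was -0.11. The transcripts NM_054040.3, which starts inside the circle, and NM_001103181.1, which starts upstream of it, share their other exons. The first had a mean of 10.9 cpm in wild-type and 6.98 cpm in CD cerebella. The second went the other way, with means of 3.68 and 5.37 cpm, and its groups overlapped. The excess of the first over the second was 4.18, 13.9, 7.63 and 3.17 cpm in the wild-type and 1.59, 0.611 and 2.62 cpm in the CD cerebella. In CD mice m118, m190 and m242 the excess was 7, 3 and 19 counts, against 17 to 72 counts in wild-type mice. Whether reads of the circle are part of this excess was not tested. The groups did not overlap for this excess, but the two-sided exact permutation test gave p = 0.0571, against a smallest possible p of 0.0286 with these 35 arrangements, and 0.514 after adjustment over the 9 values tested this way. Of the other tubby family genes, 2 had enough counts to be tested, and neither they nor the 10 tested genes that start within 1 Mb of Tulp4 reached an unadjusted p of 0.05. The neighbours had log2 fold changes from -0.12 to 0.24.

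The libraries carried the genes of the labelled tissue. Pcp2, a Purkinje cell gene, was at 2248 to 2680 cpm and Cbln3, a granule cell gene, at 1373 to 2512 cpm over the 7 libraries. Brainstem genes were close to absent: of the 9 in the table, 8 were under 1 cpm in every cerebellum, Hoxb2, Chat and Dbh had no count in any of them, and the summed level was 0.618 to 1.74 cpm in wild-type and 0.814 to 2.28 cpm in CD libraries. The 8 forebrain neuron genes summed to 355 to 592 cpm in wild-type and 366 to 440 cpm in CD cerebella, most of it Nrgn. Xist, transcribed from the inactive X chromosome, was at 339 to 455 cpm, and the Y-linked Ddx3y and Uty had no count in any cerebellum, where 3 counts would be 0.414 to 0.683 cpm. One-transcript-per-gene totals were 4796440 to 5862733 counts in wild-type and 4508897 to 7275848 in CD libraries.

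Some libraries stood apart. Gh, which encodes growth hormone and is made in the pituitary, was at 60.5 and 52.9 cpm in CD mice m118 and m190 and at 0.414 cpm in CD mouse m242. In wild-type mice m162, m164, m240 and m244 it was at 1.505, 11.4, 1.44 and 1.87 cpm. Pomc, Cga and Prl, further pituitary hormone genes, were also highest in CD mice m118 and m190. Lhb, another such gene, was too, at 0.455 and 0.814 cpm. Tshb was not, at 0.683 and 0.407 cpm in these mice and 0.967 and 0.933 cpm in wild-type mice m164 and m244. Tshb and Lhb had at most 5 counts in any cerebellum. Red blood cell genes were highest in CD mouse m118 for all 5 genes listed, with a summed level of 14398 cpm against 5826 to 8715 cpm in wild-type and 4637 cpm at the lowest in CD libraries. In wild-type mouse m162, interferon response genes were high, with Ifit3 at 147 cpm against 34.9 to 50.5 cpm in the other wild-type libraries. The plot of single libraries shows some of these genes. Their part in other differences was not tested, and the count of calls without CD mice m118 and m190 stands beside the main one.

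**Figure D1:**
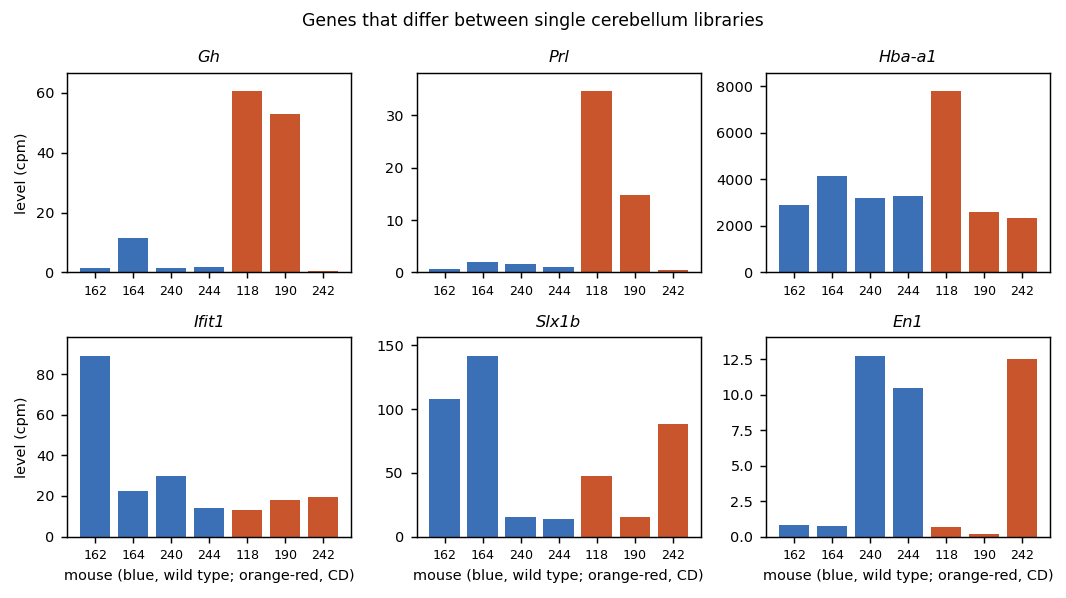
Level in cpm (vertical axes, linear, from 0) of 6 genes in each cerebellum library, named by its mouse on the horizontal axis, with wild type in blue and CD in orange-red. Gh reaches 60.5 and 52.9 cpm and Prl 34.6 and 14.9 cpm in CD mice m118 and m190, Hba-a1 is highest in CD mouse m118, Ifit1 is 89.1 cpm in wild-type mouse m162, and Slx1b and En1 divide the libraries without following genotype.

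No gene passed the thresholds of the study, an FDR under 0.01 and a fold change over 2 or under 0.5, among the 10141 genes that reached 5 cpm in 2 or more cerebella (0%, edgeR's quasi-likelihood test). The smallest FDR was 0.981. An unadjusted p under 0.05 was reached by 461 genes, where 507 would be expected with no differences, and 220 of them were higher (2.17%) and 241 lower (2.38%) in CD mice. DESeq2 and limma-voom also called 0 genes, with 393 and 458 at an unadjusted p under 0.05. In 253 genes (2.49%) every CD library was above every wild-type library, and in 277 (2.73%) every one was below. With no differences, each of these would arise in 1 of the 35 arrangements of the libraries. The median absolute log2 fold change was 0.12, and the median was -0.0017.

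The call depended on the filter on low counts and on mouse m242. Without the filter, the same test called 10 genes of 20001, among them Cdyl, Cxxc4, Gh, Gm20172, Gm41782, Ifit1, Ncf1, Pomc and Prl, and the genotypes did not overlap for Gm20172, Gm41782 and Ncf1 of these. The spread of single genes was then pulled to the common trend with 1042 prior degrees of freedom, against 7.95 with the filter. Without CD mouse m242, Prl was called. Without CD mice m118 and m190, which leaves 1 CD library whose spread is taken to be like that of the others, 0 genes were called.

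**Figure D2:**
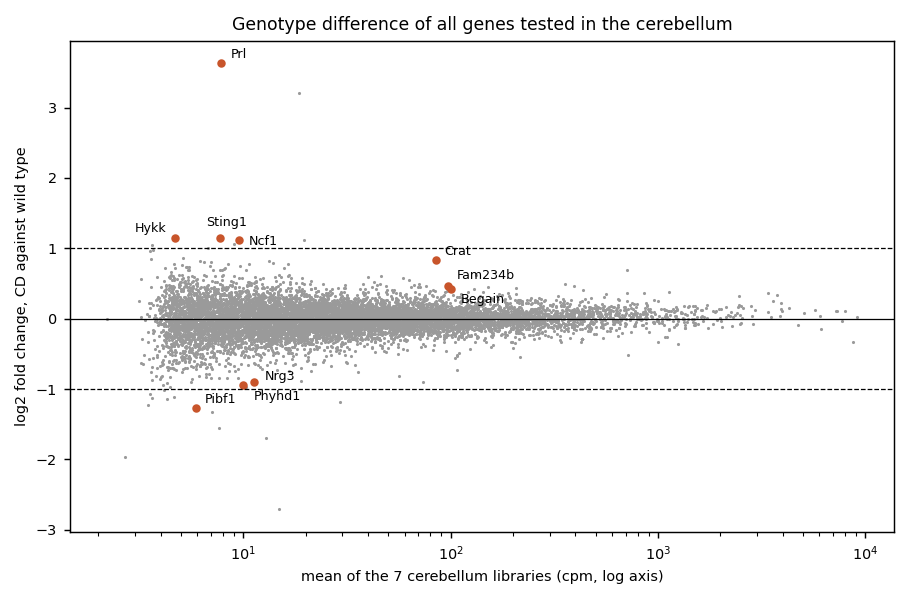
Log2 fold change of CD against wild-type cerebellum (vertical axis) by mean level in cpm over the 7 cerebella (horizontal axis, log scale) for the 10141 genes tested, with the 10 genes of the smallest unadjusted p in orange and dashed lines at 2-fold. Most genes lie within 2-fold of no difference at every level, and 22 lie beyond it.

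The precision of the comparison can be read from the intervals. For 9515 of the 10141 genes (93.8%), the 95% interval of the fold change lay within 2-fold in both directions, and for 6569 (64.8%) it lay within 1.5-fold. The median half-width was 0.35 on the log2 scale. It was 0.59 for genes under 10 cpm, of which 77.8% had an interval within 2-fold, and 0.22 for genes over 1000 cpm. The intervals of genes with low counts were thus the widest.

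The 10 genes with the smallest p are described by their values, since none was called. They were chosen by p in these same libraries, so a lack of overlap between their groups is no separate support. Sting1 encodes the endoplasmic reticulum adaptor that relays cytosolic DNA sensing to interferon genes (chromosome 18, 35733678 to 35740554 in GRCm38, as for the other positions given). Its level was 5.52, 5.22, 4.74 and 4.85 cpm in wild-type mice m162, m164, m240 and m244 and 15.02, 8.96 and 10.1 cpm in CD mice m118, m190 and m242. All CD values were above all wild-type values, and the log2 fold change was 1.14 (SE, 0.24). With any 1 library left out it was 0.90 to 1.28. Crat, carnitine acetyltransferase of mitochondria and peroxisomes (chromosome 2, 30400476 to 30416017), was at 58.5, 72.7, 48.0 and 74.9 cpm in wild-type and at 132, 78.6 and 129 cpm in CD cerebella, with a log2 fold change of 0.83 (SE, 0.19). The lowest CD value of Crat lay just above the highest wild-type value. The 3′ end of Crat overlaps that of Dolpp1 on the other strand, and the counting is not stated to use strand.

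Ncf1, a cytosolic subunit of the phagocyte NADPH oxidase (chromosome 5, 134220053 to 134229628), was at 5.35, 5.42, 6.39 and 8.59 cpm in wild-type and at 12.5, 9.57 and 19.3 cpm in CD cerebella, a log2 fold change of 1.12 (SE, 0.27). The groups did not overlap, and without CD mouse m242 it was 0.77. The 3′ end of Ncf1 overlaps that of Gtf2ird2 on the other strand. The microglia list, of a cell type known to use this oxidase, had 13 genes tested. Of these, 0 had an unadjusted p under 0.05, beside 4.55% of all genes tested, and 9 were higher and 4 lower in CD cerebella. The part of microglia in the Ncf1 difference was not tested. Begain, a postsynaptic protein that binds the scaffold of excitatory synapses (chromosome 12, 109032181 to 109068242), was at 88.1, 89.2, 84.3 and 90.2 cpm in wild-type and at 106, 128 and 120 cpm in CD cerebella, a log2 fold change of 0.43 (SE, 0.10). The wild-type values lay close together and the CD values were above them.

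Pibf1, a centrosomal and ciliary protein (chromosome 14, 99099424 to 99254899), was the most reduced of the 10 in CD mice, with 8.36, 5.61, 7.42 and 10.5 cpm in wild-type and 2.73, 3.26 and 3.72 cpm in CD cerebella, a log2 fold change of -1.27 (SE, 0.29). Nrg3, a neuregulin ligand of the ErbB4 receptor (chromosome 14, 38365102 to 39473235), was at 14.5, 14.9, 12.6 and 14.4 cpm in wild-type and at 8.65, 5.09 and 8.83 cpm in CD cerebella, a log2 fold change of -0.90 (SE, 0.22). Phyhd1, a dioxygenase (chromosome 2, 30266203 to 30282149), was at 11.0, 11.4, 10.9 and 16.6 cpm in wild-type and at 7.06, 7.53 and 5.10 cpm in CD cerebella (log2 fold change, -0.95; SE, 0.24). None of these groups overlapped. All CD values of Pibf1 were under the 5 cpm of the filter, so it was tested only through its wild-type libraries. Phyhd1 overlaps Gm28035 and Gm28038 on the same strand, so its counts are uncertain, and on the same strand Gm49026 lies within Pibf1 and Gm27332 within Nrg3.

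Fam234b had a log2 fold change of 0.46 (SE, 0.11), with 78.0 to 91.9 cpm in wild-type and 98.3 to 124 cpm in CD cerebella, and its 3′ part overlaps Gsg1 on the other strand in GENCODE, where Fam234b spans 135197977 to 135244955 on chromosome 6. Hykk, a hydroxylysine kinase (chromosome 9, 54917290 to 54949924), was at 2.24 to 4.06 cpm in wild-type and at 6.31 to 7.51 cpm in CD cerebella (log2 fold change, 1.15; SE, 0.29). All wild-type values of Hykk were under the 5 cpm of the filter, so it was tested only through its CD libraries. Prl (chromosome 13, 27057570 to 27065204) was the one gene of the 10 whose groups overlapped. Prolactin RNA was at 34.6 and 14.9 cpm in CD mice m118 and m190, which also held the most growth hormone RNA, and at 0.414 cpm in CD mouse m242, below the 0.669 to 1.93 cpm of the wild-type libraries. Its fitted log2 fold change of 3.63 (SE, 0.89) thus came from 2 libraries, which were also the only 2 to reach the 5 cpm of the filter.

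**Figure D3:**
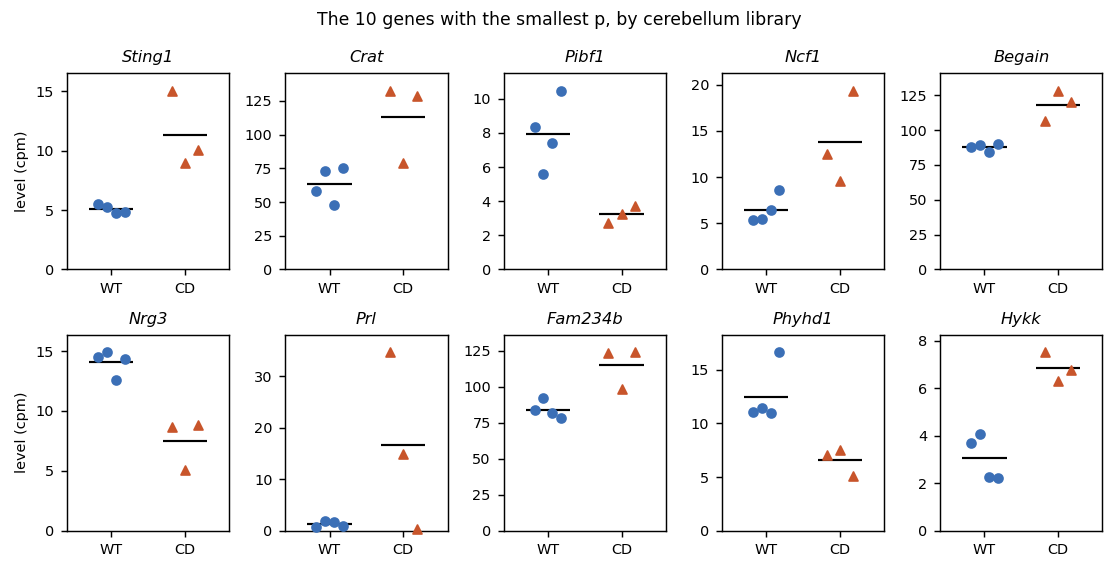
Level in cpm (vertical axes, linear, from 0) of the 10 genes with the smallest unadjusted p in the 4 wild-type (blue circles) and 3 CD cerebella (orange triangles), with a black line at each group mean. In all panels but that of Prl the genotypes do not overlap, and none of the genes passed the adjusted threshold.

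Cell types were compared through 17 lists of marker genes, described by how many of their tested genes had an unadjusted p under 0.05 and by named members. Of the 146 marker genes tested, 3 had such a p and were higher and 4 were lower in CD cerebella (4.79%), beside 4.55% of all genes tested. The 95% interval lay within 2-fold for 137 of the 146. All median log2 fold changes given for a list stand beside a median of -0.0017 over all genes. The named members include the 2 of smallest p in each list, so a lack of overlap between their groups is no separate support. Over all genes tested, every CD library was above every wild-type library in 2.49% and below in 2.73%.

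Among the neurons of the cerebellar cortex, most marker genes did not reach an unadjusted p of 0.05. In the granule cell list, all 16 genes were tested, 1 was higher with an unadjusted p under 0.05, and the median log2 fold change was -0.08. That gene was Fat2, an atypical cadherin of granule cells and their parallel fibres, with 40.3, 42.9, 31.1 and 29.9 cpm in wild-type and 47.6, 48.5 and 51.5 cpm in CD cerebella (log2 fold change, 0.45; SE, 0.14). Its groups did not overlap. Cbln3, the granule cell gene of highest level, had a log2 fold change of -0.04 (SE, 0.17), and Neurod1, a transcription factor of granule neurons, one of -0.14 (SE, 0.10). The summed list was at 7863 to 8314 cpm in wild-type and at 7232 to 8625 cpm in CD libraries.

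In the Purkinje cell list, 18 of 20 genes were tested, 1 was lower with an unadjusted p under 0.05, and the median was -0.01. That gene was Foxp2, a forkhead transcription factor of Purkinje cells and cerebellar nuclei. Foxp2 was at 20.6, 16.4, 20.4 and 22.4 cpm in wild-type and at 13.2, 12.4 and 14.3 cpm in CD cerebella, which did not overlap (log2 fold change, -0.58; SE, 0.16). Pcp2, the most abundant gene of the list, had a log2 fold change of -0.07 (SE, 0.09). The summed list was at 10216 to 11532 cpm in wild-type and at 10437 to 11035 cpm in CD libraries, so that the CD values lay inside the wild-type range.

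For the interneurons and the nuclear neurons, 8 molecular layer, 3 Golgi and glycinergic and 2 unipolar brush cell or glutamatergic nuclear genes were tested, and none had an unadjusted p under 0.05. Pvalb, a calcium buffer of molecular layer interneurons and Purkinje cells, had a log2 fold change of 0.12 (SE, 0.09). Sst, the neuropeptide somatostatin, was at 119 to 214 cpm in wild-type and 107 to 177 cpm in CD cerebella. Eomes, which marks unipolar brush cells, was at 44.3 to 62.9 cpm in wild-type and 29.9 to 58.5 cpm in CD cerebella (log2 fold change, -0.35; SE, 0.21). Its groups overlapped.

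Among glia, 21 astrocyte genes had a median of -0.05 and none had an unadjusted p under 0.05. Aldoc, the glycolytic aldolase C of astrocytes and of stripes of Purkinje cells, was at 6009 to 7177 cpm in wild-type and at 5389 to 6155 cpm in CD cerebella (log2 fold change, -0.15; SE, 0.09). Of 17 oligodendrocyte genes with a median of 0.09, only Ermn, a cytoskeletal protein of the myelin sheath, had a p under 0.05 (log2 fold change, 0.34; SE, 0.15), and the myelin enzyme Cnp had a log2 fold change of 0.05 (SE, 0.11). The groups overlapped for Ermn. Wild-type mouse m162 had the lowest value in 10 of the 17 genes, and the median was -0.01 without it and -0.08 without CD mouse m242. The oligodendrocyte precursor list had the lowest median of those with 5 or more genes tested, -0.36 over 6 genes, of which 2 were lower with a p under 0.05. Olig2, a transcription factor of the lineage, was at 11.2, 13.9, 14.2 and 9.33 cpm in wild-type and at 6.83, 8.14 and 9.93 cpm in CD cerebella, which overlapped (log2 fold change, -0.53; SE, 0.22). C1ql1, a secreted protein made by precursors and by the climbing fibre neurons, was at 4.51 to 6.18 cpm in wild-type and 2.50 to 4.07 cpm in CD cerebella (log2 fold change, -0.69; SE, 0.29). All CD values of C1ql1 were under the 5 cpm of the filter, so it was tested only through its wild-type libraries. Olig2 and C1ql1 are genes of low counts. The summed level of the list, led by Bcas1, was 111 to 164.4 cpm in wild-type and 127 to 143 cpm in CD libraries. The 13 microglia genes had a median of 0.06, and C1qb, a complement gene, had a log2 fold change of 0.22 (SE, 0.13).

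In the vascular lists, Itm2a of the 13 endothelial genes was lower, with 30.9, 32.5, 32.6 and 36.4 cpm in wild-type and 25.03, 23.6 and 27.2 cpm in CD cerebella (log2 fold change, -0.38; SE, 0.12). Acta2, the smooth muscle actin of arterioles, was the 1 of 5 mural genes with a p under 0.05, at 21.1, 19.7, 23.3 and 18.5 cpm in wild-type and 31.9, 29.1 and 26.6 cpm in CD cerebella (log2 fold change, 0.50; SE, 0.14). The groups did not overlap for either gene. Vtn, the pericyte gene of highest level, had a log2 fold change of -0.15 (SE, 0.11). Meningeal, choroid plexus and ependymal genes gave no p under 0.05. Of the choroid plexus genes, 4 of 10 were under 1 cpm in every cerebellum, Folr1 and Kl among them, and Ttr was at 32.8 to 97.9 cpm. The 5 red blood cell genes had a median of 0.13, with the values of CD mouse m118 the highest, as given above. Without that library the median was -0.50, and the summed levels of the other CD mice, 5468 and 4637 cpm, were below all wild-type sums.

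**Figure D4:**
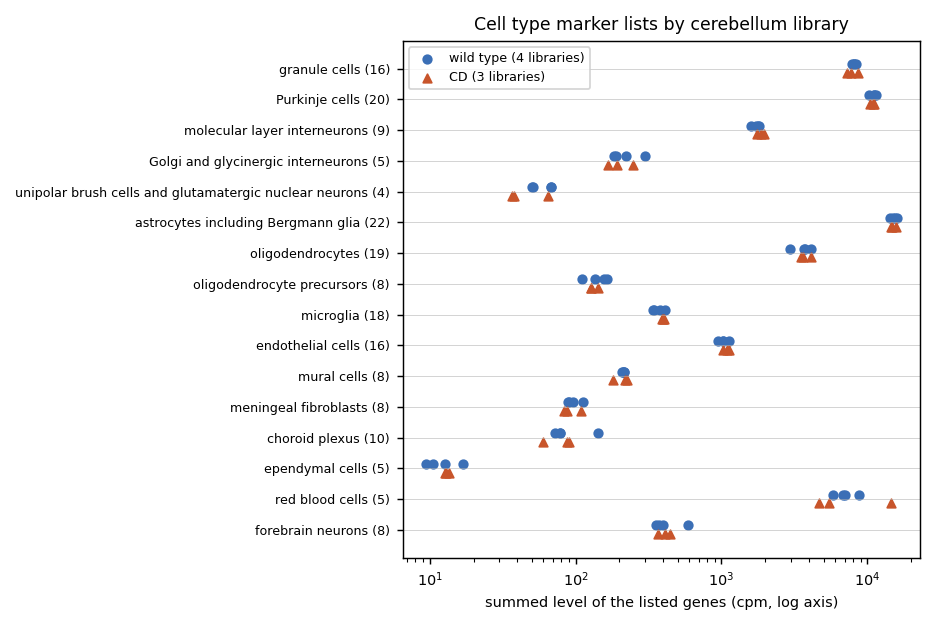
Summed level in cpm (horizontal axis, log scale) of the listed genes of 16 cell types (rows, number of listed genes in the table in brackets) in the 4 wild-type (blue circles) and 3 CD cerebella (orange triangles). The genotypes overlap in most rows, and the red blood cell sum of 14398 cpm in CD mouse m118 lies apart from the other libraries.

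Genes were next grouped by function. Their named members were also chosen by p, so a lack of overlap is again no separate support. Of the 572 listed genes tested, cell type lists included, 12 were higher and 18 lower with an unadjusted p under 0.05. That was 5.24%, beside 4.55% of all genes tested, and each count given for a list stands beside that share. A 95% interval within 2-fold was held by 534 (93.4%, beside 93.8% of all genes). In the plot of the functional lists, every list with more than 3 genes tested is shown by its genes.

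**Figure D5:**
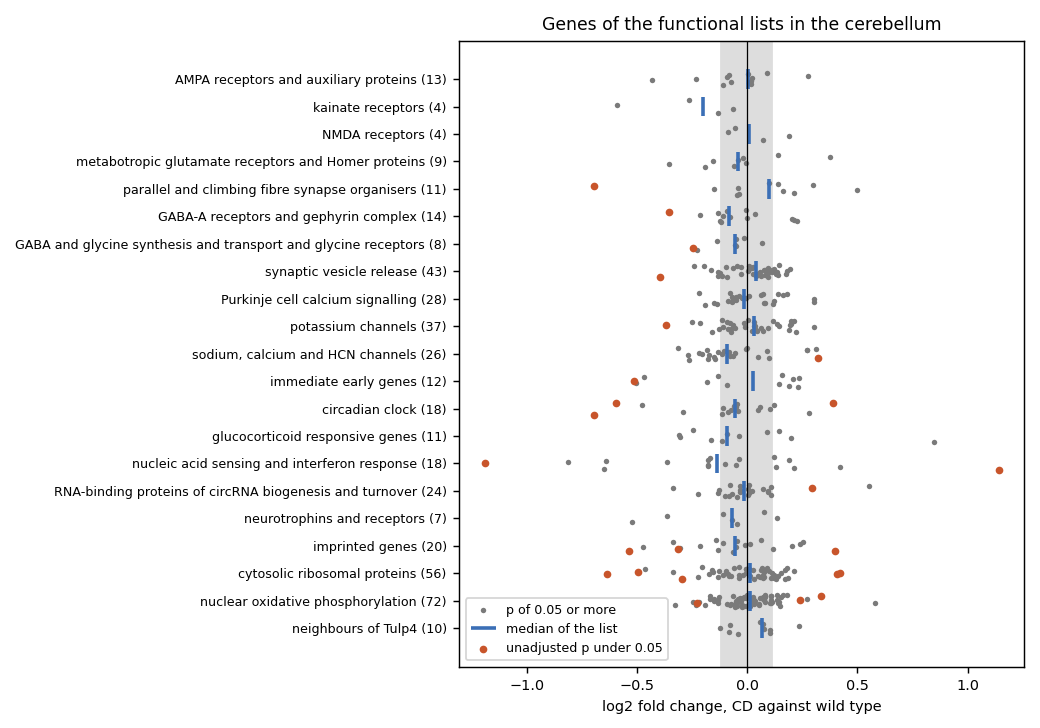
Log2 fold change of CD against wild-type cerebellum (horizontal axis) of each tested gene of 21 functional lists (rows, number of genes tested in brackets). Genes with an unadjusted p under 0.05 are orange, the blue bar is the median of the list, and the grey band runs from -0.12 to 0.11, the quartiles of all genes. Most medians lie inside the band, and the nucleic acid sensing list holds the widest range, -1.19 to 1.14.

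Receptors for glutamate came first, since they carry the excitatory input of the circuit. Of 13 AMPA receptor subunits and auxiliary proteins, 4 kainate, 4 NMDA and 9 metabotropic receptor and Homer genes, none had an unadjusted p under 0.05, and their medians were 0.0028, -0.20, 0.0080 and -0.04. Cnih2, a cornichon that binds AMPA receptors and the most abundant of the first list, was at 662 to 837 cpm in wild-type and 694 to 818 cpm in CD cerebella. Its 95% interval ran from -0.21 to 0.25 on the log2 scale. The AMPA receptor partners Cacng5 and Cacng3, the genes of smallest p in that list, had log2 fold changes of -0.23 (SE, 0.12) and -0.43 (SE, 0.25), and the genotypes overlapped for both. Grin1, the obligatory NMDA receptor subunit, had a log2 fold change of 0.07 (95% interval, -0.13 to 0.27), and Grm4, the presynaptic receptor of parallel fibres, one of -0.01 (-0.24 to 0.22). For Cnih2, Grin1 and Grm4 a difference of 1.5-fold lay outside the interval. The kainate receptor partners Neto2 and Neto1 were the lowest by p of their list, with log2 fold changes of -0.26 (SE, 0.13) and -0.59 (SE, 0.31). All CD values of Neto1 were under the 5 cpm of the filter, so it was tested only through its wild-type libraries.

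Of 11 organisers of parallel and climbing fibre synapses, only C1ql1, described among the precursor genes, had a p under 0.05, and the median was 0.10. C1ql1 was tested only through its wild-type libraries, as given there. Grid2ip, a Purkinje cell scaffold of the delta2 glutamate receptor, was at 7.52 to 12.3 cpm in wild-type and 10.5 to 20.4 cpm in CD cerebella, with overlap. Of 14 GABA-A receptor and gephyrin complex genes, Gphn, which encodes the scaffold gephyrin, was lower (log2 fold change, -0.36; SE, 0.15). It was at 18.95 to 26.3 cpm in wild-type and 17.4 to 19.8 cpm in CD cerebella, with overlap at 1 wild-type library. Of 8 genes of GABA and glycine synthesis, transport and reception, Gad2, one of the enzymes that make GABA, had a p under 0.05. Gad2 was at 109, 101, 101 and 97.3 cpm in wild-type and at 87.4, 87.1 and 84.1 cpm in CD cerebella, without overlap (log2 fold change, -0.24; SE, 0.10). The other enzyme, Gad1, was at 167 to 210 cpm in wild-type and 146 to 186 cpm in CD cerebella, and the vesicular transporter Slc32a1 had a log2 fold change of -0.05 (SE, 0.11).

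On the release side, 43 synaptic vesicle genes had a median of 0.04, and 1, Syn3, a synapsin, had a p under 0.05 (log2 fold change, -0.40; SE, 0.18). Vamp2, the vesicle SNARE of highest level, was at 5799 cpm in wild-type mouse m162, at 9986 to 10244 cpm in the other wild-type and at 7459 to 11590 cpm in CD cerebella. All 43 genes had a 95% interval within 2-fold. The same held for all 28 genes of Purkinje cell calcium signalling, none of which had a p under 0.05, with Inpp5a, an inositol phosphatase, at a log2 fold change of 0.16 (SE, 0.10).

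Of 37 potassium channel genes, Kcnn2, the SK2 channel, was lower, at 15.9 to 17.9 cpm in wild-type and 11.6 to 14.9 cpm in CD cerebella without overlap (log2 fold change, -0.37; SE, 0.16). All 37 intervals lay within 2-fold. Of 26 sodium, calcium and HCN channel genes, Scn2b, an auxiliary subunit of sodium channels, was higher, at 144, 185, 191 and 171 cpm in wild-type and 208, 227 and 212 cpm in CD cerebella (log2 fold change, 0.32; SE, 0.11). Its groups did not overlap. The list had a median of -0.09.

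Genes that respond to activity, time of day and stress hormones were described next. Of 12 immediate early genes, Nr4a3, an orphan nuclear receptor, had a p under 0.05, at 11.8 to 20.1 cpm in wild-type and 8.88 to 14.3 cpm in CD cerebella, with overlap (log2 fold change, -0.51; SE, 0.22). Of 18 clock genes, Nfil3, a repressor of D-box genes, was higher (log2 fold change, 0.39; SE, 0.15), and Rorb and Arntl were lower. Rorb, a nuclear receptor of the clock loop, was at 18.6, 12.2, 14.2 and 11.6 cpm in wild-type and 8.42, 9.37 and 10.2 cpm in CD cerebella (log2 fold change, -0.59; SE, 0.21). Arntl, the core activator also called Bmal1, had a log2 fold change of -0.69 (SE, 0.28), and Nr1d1, its repressor and the clock gene of highest level, one of 0.10 (SE, 0.14). The genotypes did not overlap for Nfil3, Rorb and Arntl. None of 11 glucocorticoid responsive genes had a p under 0.05, and Fkbp5, a cochaperone of the glucocorticoid receptor, was at 1.67 to 5.23 cpm in wild-type and 2.73 to 6.90 cpm in CD cerebella. Of 7 neurotrophin and receptor genes, none had a p under 0.05, and Ntrk2, the receptor of BDNF, had a log2 fold change of -0.07 (SE, 0.11).

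The nucleic acid sensing and interferon list had the widest spread, with a median of -0.14 over 18 genes. Sting1 was higher, as described. Ifit1, an interferon-induced RNA-binding protein, was lower by p (log2 fold change, -1.19; SE, 0.49), but its wild-type values were 89.1, 22.2, 29.9 and 13.8 cpm and its CD values 13.2, 18.1 and 19.6 cpm, so that the groups overlapped. Without wild-type mouse m162, the log2 fold change was -0.35 and the median of the list was 0.09. Mouse m162 had the highest value of the 7 cerebella in 9 of the 18 genes, Ifit1, Ifit3, Oasl2 and Ifi27 among them. B2m, the light chain of MHC class I and the gene of highest level, had a log2 fold change of -0.04 (SE, 0.14). The sensor Cgas, which makes the ligand of STING, was left out by the filter at 0.407 to 2.05 cpm.

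Of 24 genes of RNA-binding proteins that act on circular RNA biogenesis or turnover, Ptbp2, the neuronal splicing repressor, was higher (log2 fold change, 0.29; SE, 0.12), at 42.6 to 51.8 cpm in wild-type and 51.5 to 64.7 cpm in CD cerebella with overlap. Rbfox3, the splicing factor known as NeuN and the most abundant of the list, had a log2 fold change of 0.01 (SE, 0.11). Of 20 imprinted genes, Igf2, a growth factor expressed from the paternal allele, and Ube3a, a ubiquitin ligase expressed from the maternal allele in neurons, were lower. Igf2 was at 95.6, 96.9, 169 and 136 cpm in wild-type and 95.1, 74.9 and 87.2 cpm in CD cerebella (log2 fold change, -0.54; SE, 0.18). Ube3a was at 51.6 to 59.0 cpm in wild-type and 40.5 to 46.2 cpm in CD cerebella (log2 fold change, -0.31; SE, 0.11). H19, the maternally expressed RNA next to Igf2 and a gene the study names, was at 14.4 to 19.9 cpm in wild-type and 18.5 to 26.4 cpm in CD cerebella (log2 fold change, 0.40; SE, 0.17). The groups did not overlap for Igf2 and Ube3a and did for H19.

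The study reported dysregulated transcripts in the hippocampus and cortex and none in the cerebellum, so the genes it names are not cerebellar results of the study. For those other than H19, the genotypes overlapped here too. Gm2694, a long noncoding RNA, was at 434 to 564 cpm in wild-type and 445 to 452 cpm in CD libraries (log2 fold change, -0.14; SE, 0.11). Ccn3 did not pass the filter, at 2.61 to 5.02 cpm in wild-type and 1.38 to 4.89 cpm in CD cerebella (two-sided exact permutation p = 0.514), and Gm36251 had at most 2 counts in any cerebellum. Nnt, which differs between C57BL/6 substrains, was at 31.8 to 50.5 cpm in wild-type and 39.0 to 49.4 cpm in CD cerebella.

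The largest lists described general cell machinery. Of 56 cytosolic ribosomal protein genes, 2 were higher and 3 lower with a p under 0.05, beside 4.55% of all genes tested. Of 72 nuclear oxidative phosphorylation genes, 2 were higher and 1 lower. Their medians were both 0.01. Rplp1, of the ribosomal stalk, was at 95.3, 114, 136 and 108 cpm in wild-type and 168, 152 and 135 cpm in CD cerebella (log2 fold change, 0.42; SE, 0.13). Rpl5, which carries the 5S RNA, was at 33.3 to 41.4 cpm in wild-type and 15.04 to 34.4 cpm in CD cerebella (log2 fold change, -0.64; SE, 0.22), and both pairs of groups overlapped. Reads of ribosomal protein genes can be shared with processed pseudogenes, so these counts are uncertain. Uqcr11, a complex III subunit, had a log2 fold change of 0.33 (SE, 0.14), and Ndufa9, a complex I subunit, one of 0.24 (SE, 0.11).

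Whether the genotype difference in the cerebellum differed from that in the hippocampus and cortex was tested in one fit of the 22 libraries. No gene of 11137 reached an FDR of 0.05 (0%, edgeR's quasi-likelihood test), and 506 had an unadjusted p under 0.05 (4.54%). The smallest FDR was 0.389, for Nrg3. Nrg3 had log2 fold changes of 0.10 in the hippocampus and -0.06 in the cortex, against -0.90 in the cerebellum. Sting1 had 0.21 and -0.24 in these regions, Crat 0.05 and -0.16, Ncf1 -0.30 and 0.21, and Begain -0.20 and -0.17. When limma-voom was given a block for the mouse, 0 genes reached an FDR of 0.05. None of these differences between regions is therefore past the threshold of the test.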

How the data were processed

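Total RNA of dissected cerebellum, hippocampus and cortex was made into CelSeq2 3′ libraries, in which reverse transcription starts at the poly(A) tail. Per the study's methods and the submitters' processing notes, the authors aligned reads to mm10 with STAR and counted them with ESAT, and the deposited values are raw read counts per RefSeq transcript in whole numbers. Tool versions, the RefSeq release, whether molecular identifiers were collapsed and whether counting used strand are not given in the sources used here. The 85964 transcripts were matched to gene symbols by accession without version (69288 matched, 23037 genes; 16676 did not match and were not used), and each gene was represented by whichever of its transcripts had most counts in the 22 libraries together. Of all transcripts, 42526 repeat the counts of another in every library, so many isoforms cannot be told apart by these counts. No column was left unmapped to a sample.

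Genes with 5 cpm in at least 2 of the 7 cerebella, 22.5 to 36.4 counts by library, were fitted in edgeR (4.0.16, in R 4.3.3) with TMM factors and the quasi-likelihood test, without covariates. Calls needed an FDR under 0.01 and a fold over 2 or under 0.5. Levels in cpm use the total of the tested genes times the TMM factor, intervals cover 95%, and 1 library is 1 mouse. Whether the difference in cerebellum differs from the mean of those in hippocampus and cortex was tested in a fit of all 22 libraries at an FDR of 0.05. Genes under the filter and Tulp4 transcripts were tested by a two-sided exact permutation test over the 35 arrangements of libraries on log2(cpm + 0.5). The fit was tested on simulated counts, with 1 spread for all genes. Planted 3-fold and 4-fold changes were called in 96 of 96 and 97 of 97 genes. Smaller changes, and a spread that differs between genes, were not simulated. Members and lists were chosen with earlier results of these data known. The genes named were Tulp4, the 10 genes of smallest p and, for each list, the 2 members of smallest p and the member of highest level, and a few others, among them Arntl, Ifit1, Ifit3, Oasl2 and Ifi27, were named after their values were seen. Results for a few genes are not reported here. Mouse numbers are not shared between genotypes, so the cerebellum comparison has no pairs. Deviations from the group means were barely shared by cerebellum and another region of the same mouse, with correlations of -0.0804 to 0.0805. Depth was 4508897 to 7275848 counts per library, and 3 counts in a library correspond to 0.414 to 0.683 cpm. Floors of this kind cover counting error only. Alternatives were DESeq2 (1.42.0), limma-voom (3.58.1), other scalings, filters, transcripts and libraries left out.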

Additional observations from a re-analysis of the deposited data

Results flagged for a closer look

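Of 161 values examined in the 4 wild-type cerebella, 9 had a library far from the other 3 by Dixon's test, where chance gives about 1 in 20, and 8 of these are given. In wild-type mouse m244, Etnppl was at 69.8 cpm against 44.1 to 47.0 cpm, Fkbp5 at 5.23 against 1.67 to 2.27 cpm, Ngfr at 17.2 against 10.2 to 11.3 cpm and Phyhd1 at 16.6 against 10.9 to 11.4 cpm. In m162, Vamp2 was at 5799 cpm against 9986 to 10244 cpm, Gm36251 at 0.334 cpm (2 counts) against 0, and the summed nucleic acid sensing and interferon list at 879 cpm against 587 to 633 cpm. The summed choroid plexus list was at 142.85 cpm in m240, against 72.9 to 78.6 cpm. No cause was tested for these values.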

How the results depend on the processing

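The count of called genes was 0 under all alternatives except no filter on low counts (10 genes) and leave-one-out, where it was 0 to 1, the 1 being Prl without m242 of the CD cerebella. The number of genes at an unadjusted p under 0.05, 461 of 10141, became 1070 of 20001 with no filter and 1093 of 25589 with every transcript kept, where more features were tested, with 303 (without CD mouse m118) to 650 (without wild-type mouse m164) in leave-one-out. It was 393 with DESeq2, 458 with limma-voom, 320 without CD mice m118 and m190 and 410 with a term for mice m240, m242 and m244, the last pair of alternatives chosen after seeing the data, with 0 called in both. Between regions, 0 genes were called in each alternative, and leave-one-out gave 395 to 656 at an unadjusted p under 0.05. With the mouse as a replicate block, 508 had such a p, and the smallest FDR was 0.928 by limma-voom. The cause of the shifts between libraries left out was not tested. The 34 named genes at an unadjusted p under 0.05 had 574 values under alternatives, 0 with the other sign, but they were selected for a small p. Of 1911 such values of all 113 named genes, 80 moved by over 1 SE, and 3 named genes (Ifit1, Ncf1 and Prl) passed the thresholds under some alternative. Of 697 list medians under alternatives, 88 had the other sign, so directions of list medians near 0 are not stable. Intervals were widest for genes under 10 cpm.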

Other observations

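Some genes divided the cerebellum libraries without following genotype. These were chosen after their values were seen and are given with no explanation. Slx1b was at 108 and 142 cpm in wild-type mice m162 and m164, at 47.6 and 88.0 cpm in CD mice m118 and m242 and at 13.6 to 15.7 cpm in the other 3. En1, the midbrain and hindbrain homeobox gene, was at 10.5 to 12.8 cpm in m240, m242 and m244 and at 0.204 to 0.836 cpm in the other 4 mice. Wdfy1 was at 131 to 153 cpm in the same 3 mice, against 55.5 to 91.5 cpm.

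Single libraries also held high or low values. Camk2a, abundant in forebrain neurons, was at 146 cpm in wild-type mouse m164 and 153 cpm in CD mouse m242, against 28.7 to 54.6 cpm. Cdyl was at 81.6 cpm in m162 and Chrdl1 at 22.8 cpm in m244. Capn11 was at 19.4 cpm in m240 and 32.8 cpm in m242. Il2 was at 8.02 cpm in m162, against 38.1 to 52.6 cpm in the other 6 mice.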
